A study of Mus musculus with 15 samples.

Results

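A group of 10 genes that mark limb and lung position outside the Hox clusters was examined in cultured cells of the mouse bone marrow (BM) and lung. The study describes these cells as endothelial cells (ECs), except for BM mesenchymal stromal cells (MSC), and its names are kept here. The 10 genes were chosen by name from the 44674 gene rows of the count table: Tbx2, Tbx3, Tbx4, Tbx5, Foxf1, Tcf21, Wnt2, Pitx1, Shox2 and Mab21l2. All 10 were found, and all 10 passed the filter on low counts, which left 19401 genes for testing. Tcf21 passed through the lung libraries, the only group in which it had more than 1 count, so its levels are given without a test, and the counts of genes called and the medians below are over the other 9. The values are CPM, a gene's count scaled to a library total of 1000000.

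Bulk RNA-seq libraries were made from sorted or cultured cells of 8 groups. P0 Emcn+ and P0 Emcn- BM endothelial cells (BMECs) are tdTomato+ CD45- cells sorted from primary cultures of whole BM (passage P0) by the presence or absence of endomucin (Emcn), a surface sialomucin of sinusoidal and venous endothelium. P1, P2, P3 and P4 Emcn- BMECs come from later passages of such cultures, and Lung is the matching population of lung cultures, Emcn- according to the study's text while its sample labels give no Emcn status. The MSC group holds BM mesenchymal stromal cells. In the study's methods MSC were grown in MesenCult medium, and the BM and lung EC cultures in EGM-2, an endothelial growth medium. Each group had 2 libraries except P4, which had 1. The labels give the genotype WT. In the study's methods all ECs carried Tie2-CreERT2;Rosa26-tdTomato with tamoxifen, so that the reporter depends on the Tie2 (Tek) promoter, and the MSC were tdTomato+ cells of Osx-Cre;Rosa26-tdTomato mice, marked through the osteolineage gene Osx. The methods give adult mice of 4 to 6 months, used regardless of sex (the study's reporting summary gives these ages for most, not all, experiments), and BM was taken from femurs and tibias, which are hindlimb bones.

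As background, mesenchymal cells keep in adult tissue part of the transcription factor pattern that placed them in the embryo. Pitx1 and Tbx4 act in the hindlimb bud and Tbx5 in the forelimb bud, Tbx2 and Tbx3 are repressors that pattern limb and lung mesenchyme, and Shox2 controls growth of the proximal limb bones. Foxf1, which responds to Hedgehog signals, Tcf21 and the ligand Wnt2 belong to the mesenchyme around the lung bud, where Tbx4 and Tbx5 are also active, and Mab21l2 encodes a nuclear protein needed in eye, body wall and skeletal development.

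Library totals ran from 9914620 to 39718807 counts, so that 3 counts, the limit that a count of 0 allows, equal 0.0755 to 0.303 CPM in a library. These limits and all counting intervals cover counting error only. The labels name 4 batches. Batch d holds replicate 1 of the P0 populations and of Lung and batch a their replicate 2, while replicate 1 of P1 to P3 with P4 formed batch b and replicate 2 of P1 to P3 with both MSC libraries formed batch c. No P0 or Lung library shared a batch with a passaged or MSC library, and 78 genes, of which 71 are annotated pseudogenes, were at 10 CPM or more in all 9 libraries of batches b and c and under 0.5 CPM in all 6 others. None of the 10 genes is among them. Summed over 10 endothelial markers the P0 Emcn+ libraries had 9850 and 11913 CPM, against 70.6 to 259 CPM in P0 Emcn-, 169 and 759 CPM in Lung, 40.1 and 343 CPM in MSC and 44.2 to 70.5 CPM in the passages. Summed over 7 fibroblast markers (Col1a1, Pdgfra, Dcn and others) the order was turned, with 186 and 250 CPM in P0 Emcn+ against 13192 and 17197 CPM in P0 Emcn-, while Lung had 9807 and 10238 CPM, and there were 7375 and 16060 CPM in MSC and 4158 to 6418 CPM in the passages. The Emcn- BMEC, Lung and MSC libraries thus had fibroblast markers far above endothelial ones, and Emcn itself was at 32.6 and 125 CPM in the Lung libraries against 2.52 and 12.7 CPM in P0 Emcn-. Summed over 8 lung epithelium markers no library exceeded 3.77 CPM, and Sftpc had 0 counts in all 15. In bulk RNA, fewer cells of a type and less RNA per cell cannot be told apart.

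The 10 genes lie on 7 chromosomes of GRCm38 and all are protein coding. Tbx2 (ENSMUSG00000000093, chr11:85832551-85841948, plus strand) and Tbx4 (ENSMUSG00000000094, chr11:85886422-85916097, plus strand) are neighbours 44473 bases apart, and Tbx3 (ENSMUSG00000018604, chr5:119670669-119684724, plus strand) and Tbx5 (ENSMUSG00000018263, chr5:119832668-119885219, plus strand) form the other T-box pair, 147943 bases apart. Foxf1 (ENSMUSG00000042812) lies at chr8:121084386-121088144 on the plus strand, Tcf21 (ENSMUSG00000045680) at chr10:22817281-22820174, Wnt2 (ENSMUSG00000010797) at chr6:17988940-18030585 and Pitx1 (ENSMUSG00000021506) at chr13:55825051-55836192, these on the minus strand. Shox2 (ENSMUSG00000027833, chr3:66971727-66981771, minus strand) overlaps the start of Rsrc1, and Mab21l2 (ENSMUSG00000057777, chr3:86545581-86548629, minus strand) lies inside Lrba on the opposite strand.

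Promoters of 5 of the 10 genes (Tbx4, Tcf21, Wnt2, Shox2 and Mab21l2) were matched in the RefSeq table for GRCm38.p6. Each runs from 250 bases before the RefSeq start to 50 after it. The gene spans given above come from another annotation, and they hold the whole of the Tbx4 (chr11:85896515-85896814) and Mab21l2 promoters. Printed below are those of the gene with more than 1 count in Lung alone (Tcf21, chr10:22820094-22820393) and of a pair that was high in MSC and P0 Emcn- and near or at 0 in Lung (Shox2, chr3:66981722-66982021, and Mab21l2, chr3:86548234-86548533), all 3 on the minus strand and written 5′ to 3′, with CpG dinucleotides in capitals.
Tcf21: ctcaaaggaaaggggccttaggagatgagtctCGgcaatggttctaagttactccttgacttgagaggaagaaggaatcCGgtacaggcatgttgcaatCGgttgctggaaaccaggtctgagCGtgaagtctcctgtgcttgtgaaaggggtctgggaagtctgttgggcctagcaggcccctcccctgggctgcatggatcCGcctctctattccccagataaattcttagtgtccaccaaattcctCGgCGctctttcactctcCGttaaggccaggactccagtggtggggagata
Shox2: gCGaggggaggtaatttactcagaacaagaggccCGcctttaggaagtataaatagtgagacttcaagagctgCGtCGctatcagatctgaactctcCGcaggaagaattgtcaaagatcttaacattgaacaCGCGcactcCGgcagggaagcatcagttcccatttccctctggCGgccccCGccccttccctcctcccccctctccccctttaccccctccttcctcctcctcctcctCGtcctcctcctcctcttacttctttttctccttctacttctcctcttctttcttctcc
Mab21l2: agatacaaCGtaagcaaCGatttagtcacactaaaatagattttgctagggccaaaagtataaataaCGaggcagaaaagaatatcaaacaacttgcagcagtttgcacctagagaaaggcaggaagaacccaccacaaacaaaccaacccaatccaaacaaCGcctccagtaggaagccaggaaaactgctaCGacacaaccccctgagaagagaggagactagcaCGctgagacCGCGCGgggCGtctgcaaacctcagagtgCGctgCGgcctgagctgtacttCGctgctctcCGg
The Tcf21 promoter holds 8 CpGs, that of Shox2 11 and that of Mab21l2 14, beside a median of 7 over all 32841 promoters in the table. Wnt2 had 27 CpGs, the most of the 5, and Tbx4 had 8. The TATA box letters TATAAA occur in 3 of the 5 windows. On the coding strand they lie 203 bases before the RefSeq start of Shox2 and 192 bases before that of Mab21l2. In Tbx4 they are on the opposite strand, and 13.6% of all promoters hold these letters on either strand. The T-box binding letters GGTGTG (19.0% of all promoters, both strands searched) and the bicoid-type homeodomain letters TAATCC (7.06%) were in none of the 5 windows. The E-box letters CATCTG (17.2%) were in the Tbx4 window alone. A match or its absence describes these letters only.

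**Figure D1:**
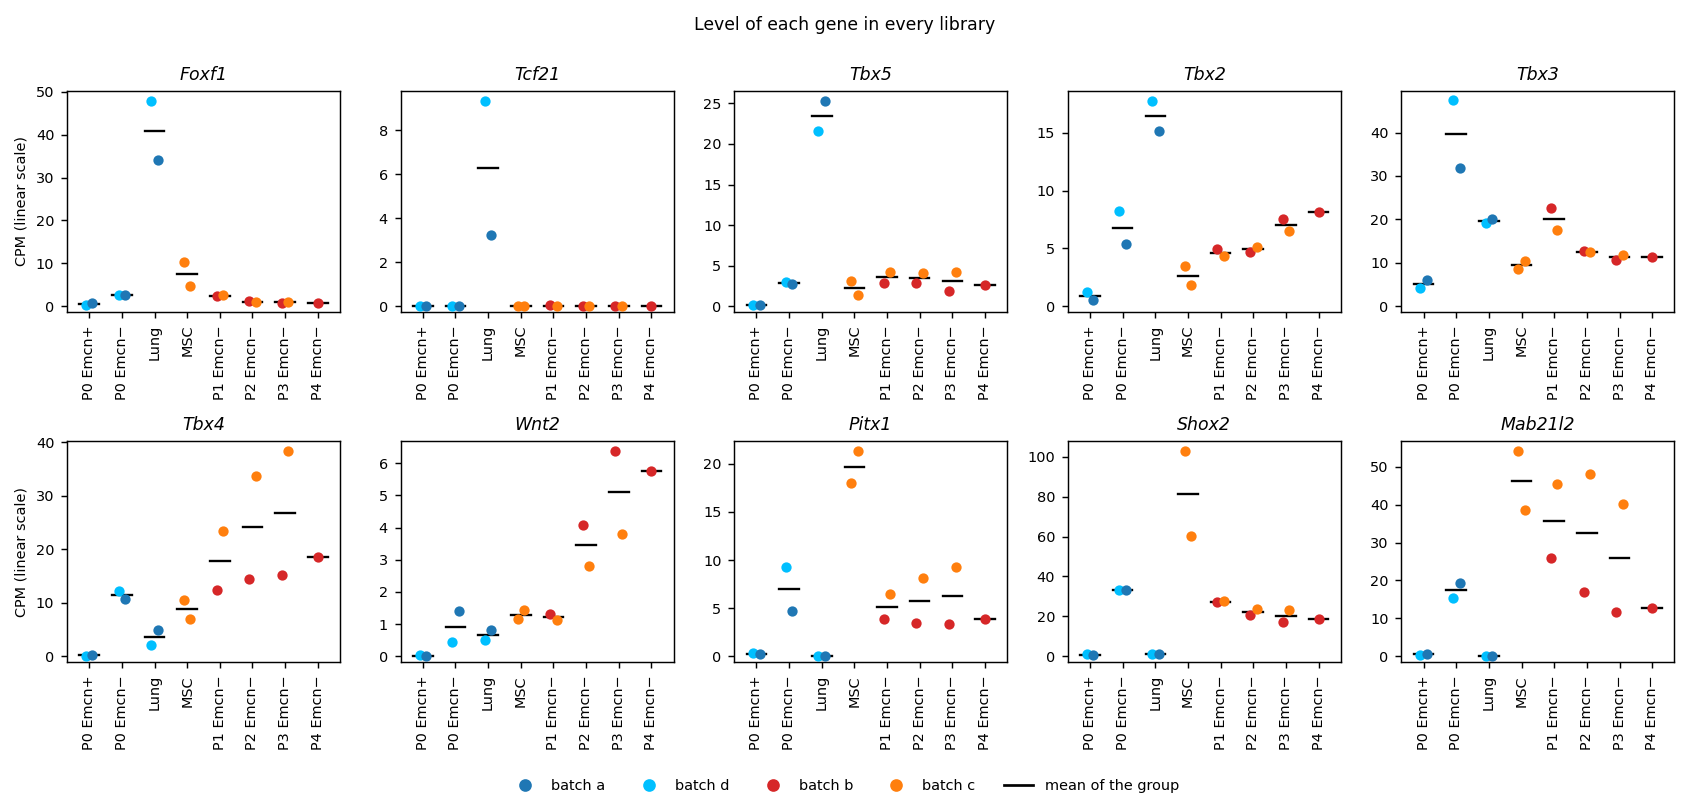
CPM of each gene (linear axis, own scale per panel) in every library, by group. Points are libraries coloured by batch and black bars are group means, with 2 libraries per group and 1 for P4. Foxf1, Tcf21, Tbx5 and Tbx2 are highest in Lung, Pitx1 and Shox2 in MSC, and the P0 Emcn+ libraries lie below 1 CPM for all genes except Tbx3 (4.21 and 6.11 CPM) and Tbx2 in replicate 1 (1.24 CPM).

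The first comparison asked how the 2 BMEC populations sorted from P0 cultures differ. Of these 9 genes, 9 were lower in the Emcn+ than in the Emcn- population and 0 were higher, where 11.4% of all tested genes were called lower and 7.79% higher (edgeR quasi-likelihood test, Benjamini-Hochberg adjusted p under 0.05 and absolute log2 fold change above 1.5). Their median log2 fold change was -4.72, against -0.06 for all tested genes. Tcf21 had 0 counts in all 4 libraries, which allows up to 0.303 CPM in the shallowest of them.

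The limb homeobox gene Shox2 had 33.3 and 33.0 CPM in replicates 1 and 2 of the Emcn- and 0.887 and 0.580 CPM in those of the Emcn+ cells. Its groups lay far apart, with a log2 fold change of -5.44 (SE 0.345, adjusted p = 3.26e-06). Pitx1, the hindlimb factor, was at 9.27 and 4.74 CPM in Emcn- and at 0.317 and 0.193 CPM in Emcn+ libraries, and its log2 fold change was -4.72 (SE 0.698, adjusted p = 0.000804). Mab21l2 stood at 15.4 and 19.4 CPM in Emcn- against 0.444 and 0.541 CPM in Emcn+ libraries (log2 fold change -5.10, SE 0.758, adjusted p = 0.000830). Each of the 9 genes called, these 3 included, was lower in both Emcn+ libraries than in either Emcn- library, as were 33.6% of all tested genes, while 27.8% were higher.

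All 4 T-box genes were lower in P0 Emcn+. Tbx4 had 12.3 and 10.8 CPM in Emcn- libraries against 0 and 8 counts (0 and 0.309 CPM) in Emcn+ libraries, which gave a log2 fold change of -6.27 (SE 0.983, adjusted p = 0.000800). Tbx5, its forelimb counterpart, was at a lower level, with 2.97 and 2.72 CPM in Emcn- and 0.0951 and 0.155 CPM in Emcn+ libraries (log2 fold change -4.46, SE 0.595, adjusted p = 0.000289). Tbx3 had 47.5 and 31.8 CPM in Emcn- against 4.21 and 6.11 CPM in Emcn+ libraries, so it alone of the 10 kept a level above 4 CPM in both P0 Emcn+ libraries, and its log2 fold change was -2.92 (SE 0.257, adjusted p = 2.18e-05). Tbx2 moved by as much, from 8.26 and 5.35 CPM in Emcn- to 1.24 and 0.502 CPM in Emcn+ libraries (log2 fold change -2.92, SE 0.450, adjusted p = 0.000718).

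Of the lung mesenchyme genes, Foxf1 had 2.69 and 2.52 CPM in Emcn- and 0.190 and 0.696 CPM in Emcn+ libraries. Its log2 fold change was -2.56 (SE 0.545, adjusted p = 0.00474), and in a fit of only these 2 groups the adjusted p was 0.0598. The ligand Wnt2 had 31 counts in P0 Emcn- (0.428 and 1.41 CPM) and 1 in P0 Emcn+ (0.0317 and 0 CPM), a ratio of 35.9 with a 95% counting interval of 5.98 to 1462, and its adjusted p was 0.00185. Within each batch the 6 genes with enough counts in both (Tbx2, Tbx3, Foxf1, Pitx1, Shox2 and Mab21l2) were lower in P0 Emcn+, with log2 ratios of -5.23 to -2.74 in batch d and -5.83 to -1.86 in batch a. Between these populations 9 of 10 endothelial markers were higher and 7 of 7 fibroblast markers lower in P0 Emcn+. There were also 5 of 6 mural and 3 of 5 osteolineage markers lower in P0 Emcn+. Of the macrophage markers 1 of 6 was higher (sums of 486 to 522 CPM against 198 to 247 CPM). The part of these markers in the result was not tested.

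**Figure D2:**
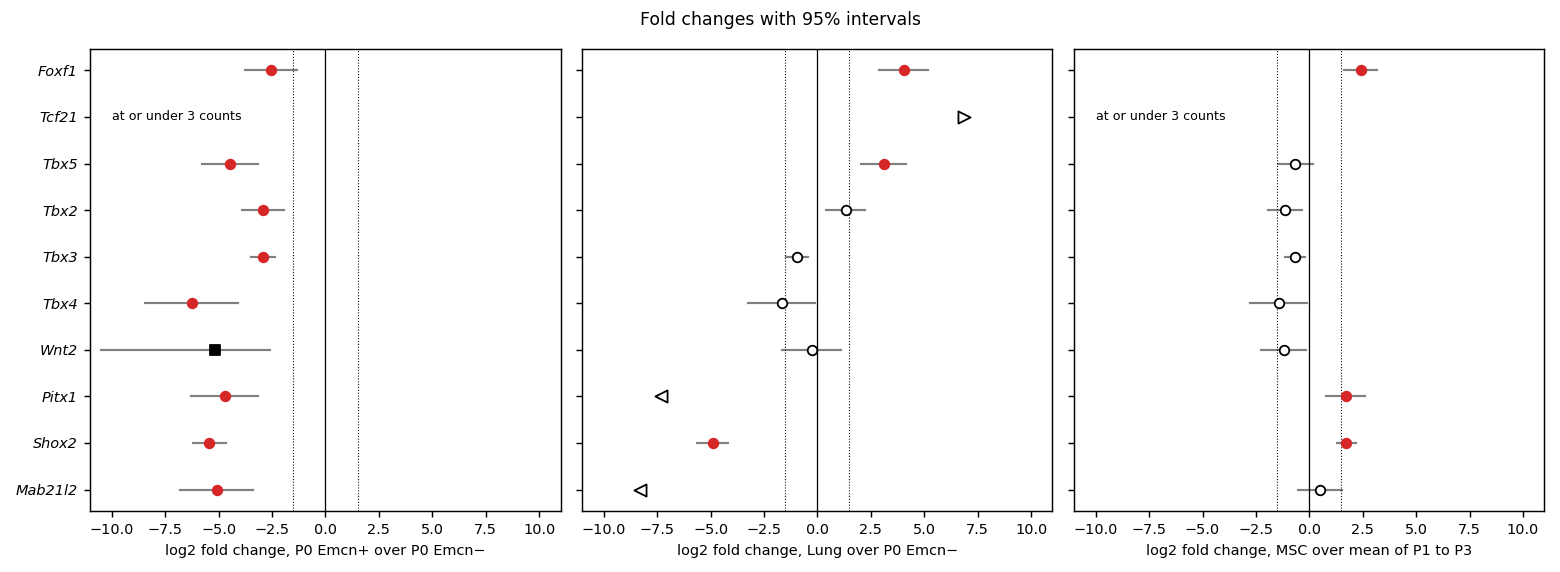
Log2 fold changes of the 10 genes in 3 comparisons, with 95% intervals. Filled red points passed the test and open points did not, open triangles are lower bounds where a group had 0 counts, the black square is a ratio with its counting interval where a group had 1 count, and dotted lines mark a log2 fold change of 1.5 in either direction. All 9 estimates shown for P0 Emcn+ against P0 Emcn- lie below 0 (Tcf21 had 0 counts in both groups), while in Lung against P0 Emcn- Foxf1, Tbx5 and Tbx2 and the bound of Tcf21 lie above 0 and the other 6 genes below it, with the interval of Wnt2 spanning 0.

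Lung and P0 Emcn- were then compared, as cultured cells of the same reporter from different organs. Of the 9 genes 2 were higher in Lung, where 2.13% of all tested genes were, and 3 were lower, where 1.7% were. Their median log2 fold change was -0.96 against 0 for all genes.

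The 2 genes called higher were Foxf1 and Tbx5. Foxf1 reached 47.9 and 34.0 CPM in Lung, above every other library (at most 10.4 CPM, in MSC), and its log2 fold change over P0 Emcn- was 4.04 (SE 0.511, 95% interval 2.90 to 5.17, adjusted p = 0.00259). Tbx5 had 21.5 and 25.3 CPM in Lung and at most 4.27 CPM in any other library, with a log2 fold change of 3.10 (SE 0.468, adjusted p = 0.00581).

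Tcf21, a basic helix-loop-helix factor of lung and kidney mesenchyme, had 338 and 70 counts in Lung (9.33 and 3.23 CPM), 0 counts in P0 Emcn+, P0 Emcn- and MSC and 1 count in all 7 passaged libraries. Against 3 counts over the group its level in Lung was at least 117-fold that in P0 Emcn- and at least 161-fold that in MSC. The 2 Lung libraries differed almost as much as their mean (6.28 ± 4.32 CPM, SD).

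The 3 lower genes were Shox2, Pitx1 and Mab21l2. Shox2 had 1.19 and 0.876 CPM in Lung against 33.3 and 33.0 CPM in the Emcn- BMECs at P0, with a log2 fold change of -4.91 (SE 0.333, adjusted p = 0.000106). Pitx1 and Mab21l2 had 0 counts in both Lung libraries, against 368 and 47 counts of Pitx1 and 612 and 192 counts of Mab21l2 in P0 Emcn-. Pitx1 was therefore at least 161-fold lower in Lung (adjusted p = 0.00231) and Mab21l2 at least 313-fold lower (adjusted p = 0.00245). The highest levels of these genes were in MSC, which exceeded Lung at least 379-fold for Pitx1 and at least 900-fold for Mab21l2.

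The other 4 genes did not pass. Tbx2 had 17.8 and 15.2 CPM in Lung against 8.26 and 5.35 CPM in P0 Emcn-, and its log2 fold change was 1.33 (95% interval 0.42 to 2.23, adjusted p = 0.102). Tbx3 had 19.1 and 20.0 CPM in Lung against 47.5 and 31.8 CPM, and with a log2 fold change of -0.96 (adjusted p = 0.0472) it fell short of the fold change limit. The hindlimb T-box gene Tbx4 was at 2.04 and 4.98 CPM in Lung against 12.3 and 10.8 CPM (log2 fold change -1.68, 95% interval -3.26 to -0.10, adjusted p = 0.244). Wnt2 was low in both groups, at 0.497 and 0.830 CPM in Lung and 0.428 and 1.41 CPM in P0 Emcn-, so its values overlapped and a difference was not detectable at this depth (log2 fold change -0.27, adjusted p = 0.982). Within each batch the direction was the same for Tbx2 (log2 ratio of at least 1.11 in both), Foxf1 (4.15 in batch d and 3.75 in batch a), Tbx5 (2.86 and 3.22), Shox2 (-4.81 and -5.23), Tbx3 (-1.31 and -0.67) and Tbx4 (-2.59 and -1.12), and differed for Wnt2 (0.22 and -0.77). None of the 7 fibroblast markers was called between these groups, while all 6 macrophage markers were lower in Lung (summed 16.7 and 17.8 CPM against 198 and 247 CPM), as were 2 of 6 mural and 1 of 5 osteolineage markers. Of the 10 endothelial markers 1 was higher (Vwf) and 1 lower (Tek), and their part in the result was not tested.

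Compared with P0 Emcn+ BMECs, Lung was higher in 6 of the 9 genes other than Tcf21 and lower in 2, where 12.6% and 8.48% of all tested genes were called higher and lower, with a median log2 fold change of 4.25 against 0.06 for all genes. This comparison shares the Lung libraries with the last one and the P0 Emcn+ libraries with the first. The log2 fold changes were 7.56 for Tbx5 (adjusted p = 1.47e-05), 6.60 for Foxf1 (2.52e-05), 4.59 for Tbx4 (0.00456), 4.25 for Tbx2 (8.61e-05) and 1.96 for Tbx3 (0.000205). Wnt2 had 36 counts in Lung and 1 in P0 Emcn+, a ratio of 35.7 with an interval of 6.01 to 1449 (adjusted p = 0.00223), and the level of Tcf21 in Lung was at least 135-fold that in P0 Emcn+. Shox2 was low in both, and its difference was not called (log2 fold change 0.53, 95% interval -0.24 to 1.31, adjusted p = 0.271). Between these groups 7 of 7 fibroblast and 5 of 6 mural markers were higher in Lung and 8 of 10 endothelial and 6 of 6 macrophage markers lower (macrophage sums of 16.7 and 17.8 CPM against 486 to 522 CPM), and their part in the result was not tested.

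Pitx1 and Mab21l2 were lower in Lung even than in P0 Emcn+, where they had 15 and 28 counts over both libraries against 0 in Lung. The bounds were at least 5.04-fold for Pitx1 (adjusted p = 0.0222) and at least 9.41-fold for Mab21l2 (0.0272). These calls rest on few counts. That of Pitx1 was lost without P0 Emcn+ replicate 1 (0.0841), Lung replicate 1 (0.121) or Lung replicate 2 (0.0640), and Pitx1 did not pass the filter in a fit of only these groups. The call of Mab21l2 was lost without any one of the 4 libraries (0.0641 to 0.144). Over all alternatives the adjusted p ranged from 0.00116 to 0.121 for Pitx1 and from 0.000398 to 0.144 for Mab21l2.

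The genes next to the Lung-high factors were read in the same libraries. Fendrr, a noncoding RNA gene that starts 1275 bases from Foxf1 and is transcribed away from it, had 14.4 and 15.9 CPM in Lung and at most 0.674 CPM in any other library, with a log2 fold change over P0 Emcn- of 6.27 (SE 0.932, adjusted p = 0.00684). Mthfsd, the coding gene on the other side of Foxf1, was at 25.2 CPM in Lung and 30.0 CPM in the Emcn- BMECs of P0 (log2 fold change -0.18, adjusted p = 0.644). The noncoding Gm43050, 747 bases from Tbx5, had 2.65 and 1.80 CPM in Lung against 0.252 and 0.403 CPM in the Emcn- BMECs of P0 (log2 fold change 2.92, SE 0.667, adjusted p = 0.0386). Tbpl1 and Eya4, the coding genes on either side of Tcf21, were not called between Lung and P0 Emcn- (adjusted p = 0.267 and 0.618). In other comparisons Eya4 was lower in P0 Emcn+ than in P0 Emcn- (log2 fold change -4.99) and higher in Lung than in P0 Emcn+ (5.45). It was also higher in MSC than in P0 Emcn- (3.09) and than in the mean of P1 to P3 (2.84), while Tbpl1 was called in none.

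Tbx3 has a noncoding antisense partner, Tbx3os1, which overlaps its start on the opposite strand. Tbx3os1 was highest in P0 Emcn-, as was Tbx3, at 2.54 and 1.92 CPM, and had 1 count in each P0 Emcn+ library (adjusted p = 6.68e-05). Whether the counting used strand is not given in the sources used here, so reads in the overlap cannot be assigned to either gene with certainty. Rsrc1 and Lrba, the genes on the opposite strand at Shox2 and Mab21l2, were not called between Lung and P0 Emcn- (log2 fold changes -0.59 and -0.70, adjusted p = 0.140 and 0.130). Foxf1 also lies within the annotated span of Gm20388, a read-through gene at 178 to 263 CPM in batches b and c and 0 to 0.784 CPM in batches a and d, whose transcript shares 0 exon bases with Foxf1.

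**Figure D3:**
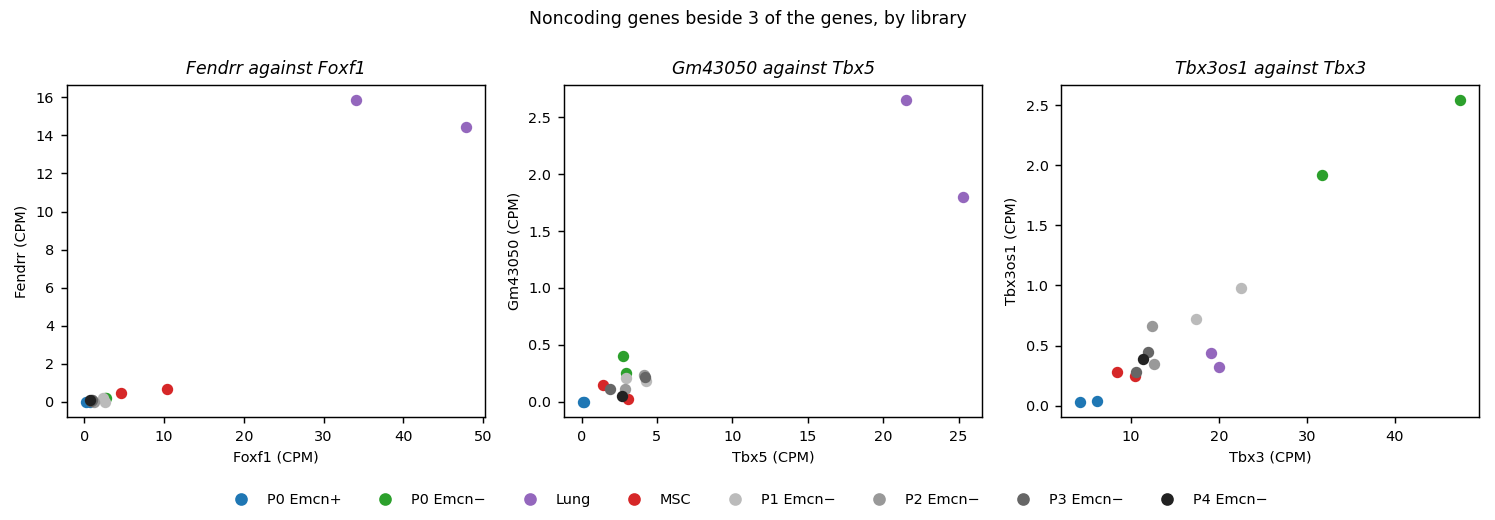
CPM (linear axes) of a noncoding neighbour gene against that of Foxf1, Tbx5 and Tbx3, with each point 1 of the 15 libraries coloured by group. Both Lung libraries stand apart for Fendrr with Foxf1 (14.4 and 15.9 CPM) and for Gm43050 with Tbx5 (2.65 and 1.80 CPM), and both P0 Emcn- libraries for Tbx3os1 with Tbx3 (2.54 and 1.92 CPM).

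MSC were set beside P0 Emcn- BMECs, as BM cells marked through an osteolineage gene. Of the 9 genes, 1 was called higher in MSC and 1 lower, where 11.3% and 7.45% of all tested genes were, and the median log2 fold change was 0.73 against 0.01 for all genes. Tbx3 had 8.45 and 10.4 CPM in MSC against 47.5 and 31.8 CPM in P0 Emcn- and was lower (log2 fold change -1.98, SE 0.246, adjusted p = 0.000327). Foxf1 had 10.4 and 4.63 CPM in MSC against 2.69 and 2.52 CPM and was called higher (log2 fold change 1.62, SE 0.475, adjusted p = 0.0241). Without MSC replicate 1 the Foxf1 value was 0.89 (adjusted p = 0.203), and the call was also lost without P0 Emcn- replicate 1 (0.0926) or 2 (0.0820) and in a fit of only these groups (0.0916). Batch, culture medium and group cannot be told apart in this comparison.

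Shox2, Pitx1 and Mab21l2 did not pass both limits. Like Foxf1, they were higher in both MSC libraries than in either P0 Emcn- library, as were 32.5% of all tested genes, while Tbx2, Tbx3 and Tbx4 were lower in both, as were 35% of all tested genes. Shox2 had 103 and 60.1 CPM in MSC and 33.3 and 33.0 CPM in P0 Emcn-, with a log2 fold change of 1.40 (95% interval 0.79 to 2.01, adjusted p = 0.00371), under the fold change limit, and of 1.75 without MSC replicate 2, above it. Pitx1 had 18.0 and 21.3 CPM in MSC (log2 fold change 1.56, 95% interval 0.30 to 2.81, adjusted p = 0.0558) and Mab21l2 54.1 and 38.5 CPM (1.52, 95% interval 0.17 to 2.87, adjusted p = 0.0768). With DESeq2 both were called (adjusted p = 0.0222 and 0.0296), as were Pitx1 with RLE factors (0.0484) or no filter (0.0372) and Mab21l2 in a fit of only these groups (0.0308). Tbx2, at 3.45 and 1.83 CPM in MSC, had a log2 fold change of -1.28 (adjusted p = 0.0363), under the limit, and was called lower without MSC replicate 1 (-1.85, 0.0266) or P0 Emcn- replicate 2 (-1.57, 0.0304). MSC replicate 2 held more endothelial marker counts than replicate 1 (343 against 40.1 CPM summed). All 6 macrophage markers were lower in MSC (sums of 17.3 to 30.1 CPM against 198 to 247 CPM), while 2 of 6 mural markers and 1 of 5 osteolineage markers were higher, and their part in the result was not tested.

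Against the mean of the P1, P2 and P3 Emcn- BMECs, MSC were higher in 3 of the 9 genes and lower in 0, where 8.42% and 5.81% of all tested genes were, with a median log2 fold change of -0.66 against 0.01. Without MSC replicate 1 there was 1 lower gene, Tbx2 (log2 fold change -1.69, adjusted p = 0.0309, against -1.13 and 0.0350 with it). The MSC libraries are those of the last comparison, and medium and group again cannot be told apart. The study passaged its cultures serially, and same-numbered P1 to P3 libraries deviated alike (correlation 0.559 to 0.749). The fit treats the passages as separate groups, so its standard errors may be too small. Shox2 was at 17.1 to 27.7 CPM in the 6 passaged libraries, and its log2 fold change was 1.74 (SE 0.203, adjusted p = 0.000234), or 1.26 without MSC replicate 1, which is under the limit. Foxf1 was at 0.847 to 2.58 CPM in the passages, and its log2 fold change was 2.40 (SE 0.346, adjusted p = 0.000721). Pitx1 was at 3.33 to 9.29 CPM in the passages (log2 fold change 1.70, SE 0.410, adjusted p = 0.0127), and this call was lost without MSC replicate 1 (0.0539) or 2 (0.0814) and, through a log2 fold change of 1.25, with batch terms.

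Both MSC libraries belong to batch c, and within it the log2 ratios of MSC over P1 to P3 were 2.30 for Foxf1, 1.71 for Shox2, 1.31 for Pitx1, 0.06 for Mab21l2 and -1.85 for Tbx4. Tbx4, at 10.6 and 7.03 CPM in MSC and 12.3 to 38.4 CPM in the passages, was not called (log2 fold change -1.43, 95% interval -2.76 to -0.11, adjusted p = 0.0942), while with batch terms it was (-1.89, adjusted p = 0.0139). Wnt2 was at 1.15 and 1.43 CPM in MSC (log2 fold change -1.20, adjusted p = 0.0773). Of the osteolineage markers 4 of 5 were higher in MSC, and of the endothelial markers 6 of 10 were higher and 1 lower. There were also 2 of 6 mural and 2 of 7 fibroblast markers higher, and 1 fibroblast and 3 of 6 macrophage markers lower. The part of these markers in the result was not tested.

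In P1 against P0 Emcn- BMECs, 0 of the 9 genes were called, where 5.77% of all tested genes were called higher and 3.07% lower, and the median log2 fold change was 0.068 against 0.02. At an unadjusted p under 0.05 there was 1 gene, Tbx3, and with DESeq2 0 genes. Tbx3 had 22.5 and 17.4 CPM at P1 against 47.5 and 31.8 CPM at P0, a log2 fold change of -0.83 (95% interval -1.36 to -0.30, adjusted p = 0.0395), under the limit. Shox2 was at 27.1 and 27.7 CPM at P1, and its log2 fold change of -0.12 had an interval of -0.72 to 0.48. Mab21l2, at 25.9 and 45.3 CPM, had a log2 fold change of 1.19 (95% interval -0.15 to 2.53, adjusted p = 0.190). Lower at P1 were 2 of 7 fibroblast, 2 of 6 mural, 3 of 5 osteolineage, 1 of 10 endothelial and 1 of 6 macrophage markers. Of these markers 0 were higher at P1, and their part in the result was not tested. Batch and passage cannot be told apart here either.

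From P1 to P3, within the same batches, again 0 of the 9 genes were called, where 0.0773% of all tested genes were called higher and 0.144% lower (15 and 28 genes). The median log2 fold change was -0.21 against -0.01. At an unadjusted p under 0.05 there were 3 genes (Wnt2, Tbx3 and Foxf1), and with DESeq2 1 gene, Wnt2, was called.

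Wnt2 had 1.31 CPM at P1, 4.08 at P2, 6.38 at P3 and 5.75 at P4 in batch b, and 1.11, 2.82 and 3.81 CPM from P1 to P3 in batch c. Both series thus went up from P1 to P3, with log2 ratios of 2.28 and 1.78, while the fitted log2 fold change was 2.11 (SE 0.554, 95% interval 0.88 to 3.34, adjusted p = 0.136 with edgeR and 0.0145 with DESeq2). Over its alternatives the adjusted p ranged from 0.0145 to 0.683. Foxf1 took the other direction, from 2.35 to 0.847 CPM between P1 and P3 in batch b and from 2.58 to 0.999 CPM in batch c (log2 fold change -1.38, 95% interval -2.48 to -0.28, adjusted p = 0.261). Tbx3 had 22.5, 12.7, 10.5 and 11.4 CPM from P1 to P4 in batch b and 17.4, 12.4 and 11.9 CPM from P1 to P3 in batch c (log2 fold change -0.81, 95% interval -1.34 to -0.27, adjusted p = 0.184).

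Between the batches 4 genes did not overlap in the passages, each higher in batch c, as were 12.5% of all tested genes, and 0 were lower in it, where 6.99% of all tested genes were. Tbx4 was at 12.3 to 18.6 CPM in the 4 batch b libraries and 23.5 to 38.4 CPM in the 3 batch c libraries, Tbx5 at 1.89 to 2.92 CPM and 4.14 to 4.27 CPM, Pitx1 at 3.33 to 3.88 CPM and 6.42 to 9.29 CPM, and Mab21l2 at 11.7 to 25.9 CPM and 40.2 to 48.1 CPM. The sign of the change from P1 to P3 differed between batches for Pitx1 (log2 ratio -0.22 in batch b and 0.53 in batch c). Macrophage markers also differed, with summed levels of 67.6 CPM at P1 in batch b and 225 CPM at P1 in batch c, and of 14.6 CPM at P3 in batch b and 10.4 CPM at P3 in batch c, and their part in these values was not tested.

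**Figure D4:**
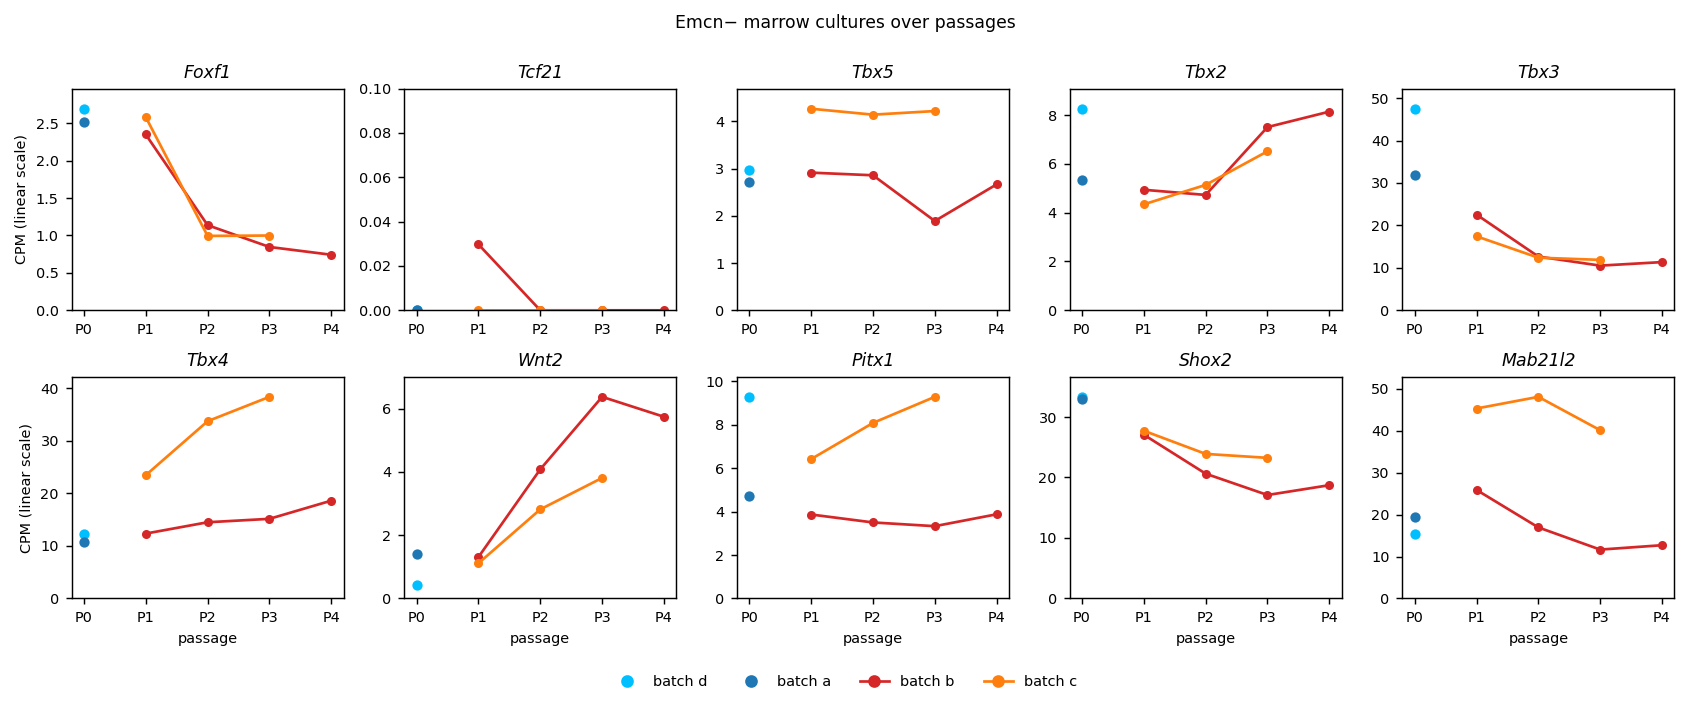
CPM (linear axis, own scale per panel) of each gene in the Emcn- BMEC cultures at P0 and over passages P1 to P4. Points are libraries, and lines join the passaged libraries of batch b (P1 to P4) and of batch c (P1 to P3), while the P0 libraries belong to batches d and a. Wnt2 goes up and Foxf1 and Tbx3 go down from P1 to P3 in both batches, and Tbx4, Tbx5, Pitx1 and Mab21l2 lie higher in batch c. Tcf21 has 1 count, in P1 replicate 1.

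The order of the group means differed from gene to gene, and overlap of libraries is given as a description, without its share over all genes. For Foxf1 it was Lung (41.0 ± 9.82 CPM, SD, n = 2), MSC (7.51 ± 4.07), P0 Emcn- (2.61 ± 0.122), P1 (2.47 ± 0.165), P2 (1.07 ± 0.102), P3 (0.923 ± 0.108), P4 (0.742) and P0 Emcn+ (0.443 ± 0.357), and only the neighbours P0 Emcn- with P1 and P2 with P3 overlapped. Tbx5 was at 23.4 ± 2.67 CPM in Lung, while P1 (3.59 ± 0.957), P2, P3, P0 Emcn-, P4 and MSC (2.24 ± 1.19) formed a series in which P0 Emcn- and P4 alone of the neighbours did not overlap, and P0 Emcn+ was last (0.125 ± 0.0421). Tbx2 had its highest mean in Lung (16.5 ± 1.85 CPM), then P4 (8.14), P3 (7.01 ± 0.701) and P0 Emcn- (6.80 ± 2.06), of which the last pair overlapped. Tbx3 alone had its highest mean in P0 Emcn- (39.6 ± 11.1 CPM), followed by P1 (20.0 ± 3.62) and Lung (19.5 ± 0.605), which overlapped.

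Tbx4 had its highest means in P3 (26.8 ± 16.4 CPM) and P2 (24.1 ± 13.6), where P3, P2, P4 and P1 overlapped in turn, and Wnt2 in P4 (5.75) and P3 (5.09 ± 1.81). Pitx1 (19.7 ± 2.35 CPM), Shox2 (81.5 ± 30.3 CPM) and Mab21l2 (46.3 ± 11.1 CPM) were highest in MSC. The MSC libraries of Pitx1 and Shox2 did not overlap with the next group, P0 Emcn-, while those of Mab21l2 overlapped with P1 (35.6 ± 13.7 CPM). Lung was last or next to last for these 3 genes, below P0 Emcn+ for Pitx1 and Mab21l2 and overlapping with it for Shox2.

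Levels of different genes were compared per kilobase of exon. In Lung, Foxf1 was highest with a mean of 17.0 CPM per kb, followed by Tbx5 (5.01), Tbx2 (4.54), Tbx3 (2.95) and Tcf21 (2.67), with Tbx4 at 1.03 and Shox2 and Wnt2 at 0.312 and 0.294. In P0 Emcn- the leading gene was Shox2 with 10.0 CPM per kb, then Tbx3 (5.98), Mab21l2 (5.70), Tbx4 (3.39) and Pitx1 (2.64), while Foxf1 (1.08) and Tbx5 (0.609) were among the lower ones. In MSC, Shox2 had 24.6, Mab21l2 15.2 and Pitx1 7.41 CPM per kb. Tbx4 thus exceeded Tbx5 in the means of P0 Emcn-, the passages and MSC, and Tbx5 exceeded Tbx4 in Lung.

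Across the 15 libraries the genes were compared by Pearson's correlation of log2(CPM + 1), given as a description, since libraries share groups and batches. Pitx1, Shox2 and Mab21l2 went together (0.957 for Pitx1 with Shox2, 0.951 for Shox2 with Mab21l2 and 0.938 for Pitx1 with Mab21l2). Tbx5 correlated by 0.819 with Foxf1 and by 0.874 with Tbx2, while the value for Foxf1 with Tbx2 was 0.577. Tbx5, Foxf1 and Tbx2 each had their highest levels in the 2 Lung libraries. The value for Foxf1 with Tcf21 (0.849) rests on the 2 Lung libraries, as Tcf21 had at most 1 count in any other library. Tbx4 correlated by 0.819 with Mab21l2, 0.753 with Wnt2, 0.751 with Shox2, 0.694 with Pitx1 and 0.252 with Tbx5. Of the 12777 genes with at least 5 CPM in a group mean, those most like Shox2 were Pitx1, Hoxc8 (0.953) and Hoxc10 (0.952), and those most like Mab21l2 were Hoxc10 (0.973), Hoxc8 (0.966) and Hoxc6 (0.957). Pitx1 was most like Rpl39l (0.966), Hoxc8 (0.965) and Shox2.

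For Foxf1 the most similar genes were Mrap (0.923), Fendrr (0.920) and Htr2a (0.918), and for Tbx5 Aspg (0.939), Pcdh10 (0.928) and Creg1 (0.918). For Tcf21 they were the antisense RNA gene Hoxaas2 (0.985), Fstl4 (0.970) and the T-box gene Tbx20 (0.967). These Tcf21 values again rest on the 2 Lung libraries. Tbx2 was most like Rab38 (0.941), Lgals3bp (0.934) and Slfn8 (0.931), and Tbx3 like Slc27a6 (0.949), Igsf8 (0.945) and Hacd2 (0.944). Tbx4 was most like Ntn1 (0.954), Pdlim4 (0.946) and Pcolce2 (0.945), and Wnt2 like Blcap (0.967), B630019K06Rik (0.960) and Bmp8a (0.942).

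Other genes of the same families and pathways were read from 4 lists. In P0 Emcn+ against P0 Emcn- 11.4% of all tested genes were lower and 7.79% higher, and in Lung against P0 Emcn- 1.7% and 2.13%. Of 13 other T-box genes 8 were tested, and between P0 Emcn+ and P0 Emcn- 2 were lower and 0 higher: Tbx18, with 82.7 ± 6.81 CPM in P0 Emcn- (log2 fold change -6.41, adjusted p = 7.38e-07), and Tbx15, with 128 ± 28.5 CPM (-5.58, adjusted p = 8.20e-07). Between Lung and P0 Emcn- 1 was higher, Tbx20, at 8.86 ± 4.11 CPM in Lung with 0 counts in P0 Emcn- (adjusted p = 0.00422), and 1 was lower, Tbx15 (log2 fold change -2.40, adjusted p = 0.000833). The median log2 fold change of the list was -0.58 in the first of these comparisons and -0.37 in the second. Of 8 nearest paralogs of the other members 7 were tested, of which 3 (Mab21l1, Foxf2 and Tcf23) were lower in the Emcn+ BMECs at P0 and 0 higher. In Lung against P0 Emcn- 2 paralogs were higher (Wnt2b with 6.10 CPM in Lung and Mab21l3 with 2.91) and 2 were lower (Mab21l1, with 0.903 CPM in Lung and 30.3 in P0 Emcn-, and Msc, with 0.341 and 4.85).

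Of 31 other limb patterning genes 27 were tested, and 16 of them were lower and 0 higher in the Emcn+ BMECs at P0, beside 11.4% and 7.79% of all tested genes, with a list median of -3.93. The largest changes among them were those of Isl1, Prrx2, Lmx1b and En1, which had 6.33, 32.4, 3.25 and 17.6 CPM in P0 Emcn- and at most 0.214 CPM in the P0 Emcn+ mean. Between Lung and P0 Emcn- 1 was higher, Meis1 (log2 fold change 1.55, adjusted p = 0.00397), and 4 were lower (Lmx1b, Irx5, Irx3 and Dlx5, with log2 fold changes of -4.97 to -2.99), beside 2.13% and 1.7% of all tested genes, with a list median of -0.52. In MSC against P0 Emcn- 5 of the 27 were higher and 3 lower, beside 11.3% and 7.45% of all tested genes. Against the passaged BMECs 9 were higher (Irx3, Irx5, Msx2 and Grem1 among them) and 2 lower, beside 8.42% and 5.81% of all tested genes. For P1 against P0 and for P3 against P1 the counts were 0 and 0 in this list. In the other lists (8, 7 and 14 genes tested) 3 genes were higher in P1 than in P0 Emcn- and 0 lower. They were Itga8 and Ces1d, with log2 fold changes of 3.08 and 2.46, and Tbx20, at a mean of 0.268 CPM in P1 and 0 counts in P0 Emcn-. For P3 against P1, 0 were called in these lists. Of all tested genes 5.77% were higher and 3.07% lower in P1 than in P0 Emcn-, and 0.0773% and 0.144% in P3 than in P1.

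The lung mesenchyme list shares Foxf2 and Wnt2b with the paralog list and Fgf10 with the limb patterning list, so their calls are counted in both. Of 15 other lung mesenchyme genes 14 were tested. In Lung against P0 Emcn- 5 were higher, among them Itga8 (41.2 ± 2.42 against 1.51 ± 0.854 CPM, log2 fold change 4.69, adjusted p = 0.000833), Npnt (4.68, adjusted p = 0.00589), Wnt2b (4.64, adjusted p = 0.00641) and Bmp4 (3.95, adjusted p = 0.0107), while Rspo2 (-4.66) and Meox2 (-3.90) were lower, beside 2.13% and 1.7% of all tested genes. The list median was 2.20. Between P0 Emcn+ and P0 Emcn- 3 of these genes went against the members and were higher in P0 Emcn+ (Bmp4 by 4.89, Itga8 by 4.00 and Limch1 by 3.36 on the log2 scale), and 8 were lower, Foxf2, Fgf10, Rspo2 and Gata6 among them, beside 7.79% and 11.4% of all tested genes. MSC were also higher than P0 Emcn- in 5 of them and lower in 0, beside 11.3% and 7.45% of all tested genes, with Bmp4 at 114 CPM, Itga8 at 33.7 CPM and Npnt at 18.3 CPM, while Tcf21 had 0 counts there.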

How the data were processed

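Reads were mapped by the authors to GRCm38 with STAR. They estimated transcript abundance with Salmon, and the deposited values are whole-number gene counts that were not normalized. CPM was computed here on library totals. Differential expression was tested with edgeR 4.0.16 in R 4.3.3, by its quasi-likelihood test with TMM factors in 1 fit of the 15 libraries, each group having its coefficient. The filter filterByExpr, set to a count of 10 and a total of 15, kept 19401 genes, and the fit had 7 residual and 3.07 prior degrees of freedom. A call needs an adjusted p (Benjamini-Hochberg, over all genes tested) under 0.05 together with an absolute log2 fold change above 1.5. Adjusted p values are from edgeR where no other tool is named. A group with 0 counts was set to 3 counts over the group, and the fold is then a lower bound. The script was also tested on simulated data.

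The members and gene lists were chosen with earlier results of these data known. Named are all 10 members, the 3 genes most correlated with each member, and some of the nearest annotated genes that were expressed. The expressed neighbours St7 (of Wnt2) and H2afy (of Pitx1) are not described. Gm3788, a processed pseudogene 123403 bases from Mab21l2, was at 38.3 to 56.8 CPM in batches b and c and at most 0.378 CPM in batches a and d. Of each list, up to 4 called genes per direction with the largest change are named. They had 1 CPM or more throughout the higher group's libraries, except Tbx20 in P1, at a mean of 0.268 CPM. Coordinates are from GENCODE M21, which holds 44118 of the identifiers. One gene of the paralog list is not reported here. Marker lists were endothelial, fibroblast, mural, osteolineage, macrophage and lung epithelium. Summed mural markers were 28.3 and 45.3 CPM in P0 Emcn+ and 355 to 1878 CPM in all other libraries, and summed osteolineage markers 126 and 211 CPM in MSC, 51.9 and 185 CPM in P0 Emcn- and at most 34.7 CPM elsewhere.

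Groups, replicates and batches are those of the labels. Between replicates the chi-square of the counts per degree of freedom was 38.6 to 129.5, above sampling noise. The labels do not state which libraries came from separate cultures, while the reporting summary of the study gives independent cultures from different animals as its replicates, and p-values measure the spread between these libraries. Same-numbered libraries are paired by the labels' batches within P0 and Lung (correlation of deviations 0.13 to 0.352) and within P1 to P3 (0.559 to 0.749). Between libraries of the same number that share no batch it was 0.0257 to 0.233. Alternatives were DESeq2 1.42.0, RLE factors, a replicate block (batch terms), no filter or 1 of 50 counts in 2 libraries, a fit of the compared groups alone, calls by adjusted p alone and the omission of single libraries. A lone library left in a group is assumed to vary like the other groups. The single-cell data of the study were not analysed here.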

Additional observations from a re-analysis of the deposited data

How the results depend on the processing

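The number of the 9 genes other than Tcf21 that were called kept within 1.5 times its value under every alternative run for P0 Emcn+ against P0 Emcn- (8 to 9), Lung against P0 Emcn- (5 to 6) and Lung against P0 Emcn+ (6 to 8). For MSC against P0 Emcn- it was 2, and 4 without the fold change limit, 4 with DESeq2 and between 1 and 3 with a library left out. Without the fold change limit it was 1 in place of 0 for P1 against P0 Emcn- (Tbx3) and 5 in place of 3 for MSC against the passaged BMECs, and with DESeq2 it was 1 in place of 0 for P3 against P1 (Wnt2). Of all settings of single genes, 665 left the call as it was, 16 lost it, 17 gained it and 12 turned the direction, the last all for differences that were not called. These were, on the log2 scale, Wnt2 in Lung against P0 Emcn- (from 0.06 to 0.65 at the highest without a library, main value -0.27, lowest -1.04), Tbx5 in MSC against P0 Emcn- (0.22 without MSC replicate 2, lowest -0.96), Wnt2 without P0 Emcn- replicate 1 in MSC (-0.046, highest 1.64) and in P1 (-0.064, highest 1.63) against P0 Emcn-, and Pitx1 in P1 against P0 Emcn- (0.26 without P0 Emcn- replicate 1, lowest -0.73). In P3 against P1 they were Tbx4 (-0.16 without P3 replicate 2, highest 1.11), Tbx5 (0.06 without P1 replicate 2 and 0.24 without P3 replicate 1, lowest -0.85), Pitx1 (-0.55 without P3 replicate 2, highest 0.86) and Mab21l2 (0.18 without P3 replicate 1, lowest -1.54). The cause was not tested.

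With the replicate block, which adds batch terms, the Mab21l2 value in MSC against the passaged BMECs was -0.017 (0.50 without it), the call of Pitx1 was lost and that of Tbx4 gained. The block changed no other call of the 9 genes, and it was not run for MSC and P1 against P0 Emcn-, since no batch holds libraries of both sides. Over all genes it moved the number called in P3 against P1 from 43 to 106, which was 303 with DESeq2, 170 with no filter, 153 in a fit of only these groups, and 0 to 41 with a library left out. For Lung against P0 Emcn- 743 genes were called, 145 in a fit of only these groups and 406 to 675 with a library left out. Without the fold change limit the numbers were 6608 in place of 3725 for P0 Emcn+ against P0 Emcn-, 7209 in place of 4086 for Lung against P0 Emcn+, 6853 in place of 3630 for MSC and 3386 in place of 1715 for P1 against P0 Emcn-, and 6206 in place of 2761 for MSC against passaged. A fit of only the groups compared gave 2396 for MSC and 968 for P1 against P0 Emcn-, the latter 805 to 2196 with a library left out. Depth limits the P0 Emcn+ values, which rest on under 30 counts a library for all members but Tbx2 and Tbx3, and the Wnt2 values of P0 and Lung.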
